A study of Mus musculus with 9 samples.

Results

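The genes described here are 10 components of the antioxidant defence of mouse cells. They comprise Nfe2l2, which encodes the transcription factor NRF2, the NRF2 target genes Hmox1, Nqo1, Gclc, Gclm, Txnrd1 and Srxn1, and the superoxide and peroxide enzymes Sod1, Sod2 and Cat. The genes were taken by name, and all 10 were found among the 48709 genes of the exon count files. All 10 also passed the filter on low counts, which kept 17361 genes for testing. The sequenced RNA came from nuclei of frozen hippocampi, stained for the neuronal protein NeuN and sorted on that signal, with 3 mice in each of 3 groups. The first group was vehicle-treated WT mice of the strain C57BL/6J. The other groups were homozygous Tg4-42 mice on the same background, given either vehicle or caffeine. Caffeine was supplied at 300 mg/l in the drinking water from 2 months of age for 4 months, so that mice were 6 months old at collection, and vehicle was tap water. A treatment label exists for the caffeine-treated mice alone. Vehicle-treated mice were therefore assigned from the genotype label (WT) or the library title (Tg4-42), together with the study's design. In Tg4-42 mice the murine Thy1 promoter drives human Aβ4-42 fused to the signal peptide of murine thyrotropin-releasing hormone, so the peptide is made in neurons, without a full-length precursor protein. Both sexes were used in the study, whose methods describe freezing of whole dissected hippocampi for male Tg4-42 mice, and the labels do not give the sex of the sequenced mice. The labels' protocol gives 6 animals per group for the isolation of nuclei and the study's methods 3, so whether a library holds nuclei of more than 1 animal could not be settled. Each library is called a mouse here after the animal number in its title. Caffeine-treated WT mice were not analysed here, so the caffeine comparison concerns Tg4-42 mice alone.

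NRF2 is held in the cytoplasm by KEAP1, which passes it to the proteasome. Oxidants and electrophiles modify KEAP1, whereupon NRF2 accumulates, pairs with a small MAF protein and binds antioxidant response elements next to genes for glutathione synthesis, thioredoxin recycling, quinone reduction and heme breakdown. NRF2 activity is set largely at the level of the protein, and in adult brain Nfe2l2 is known to be expressed at lower levels in neurons than in astrocytes.

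Because the antioxidant response element is the shared feature by which NRF2 recognises its targets, promoters of the 10 genes were searched for its core, TGACNNNGC, on both strands. Windows ran from 250 bases before to 50 bases after the start sites in the RefSeq table for GRCm38.p6, which held 8 of the 10 genes, with 10 windows in all (Hmox1 and Gclc had no entry). The core was found once each at 5 of these 8 genes, and in 50% of their windows, beside 12.4% of 32851 windows over all genes. Nqo1, Sod2 and Cat had no match. For the wider redox lists described below, the core was found in 14.8% of 122 windows, near the share over all genes. Fth1 and Tkt of those lists had no match. The stretches that hold it are shown 5′ to 3′ on the strand of the gene, with the 9 letters of the core in capitals. For every gene but Nfe2l2 the core lies on the opposite strand, so its reverse complement is what stands in capitals. The Nfe2l2 stretch is chr2:75704859-75704913 (minus strand) and its core begins 240 bases upstream of the start site. The Gclm stretch is chr3:122245387-122245467 (plus strand), with the core 134 bases upstream. The Txnrd1 stretch is chr10:82859078-82859158 (plus strand), with the core 92 bases upstream of an alternative start site inside the gene. The Sod1 stretch is chr16:90220670-90220750 (plus strand), with the core 56 bases upstream. The Srxn1 stretch is chr2:152105542-152105570 (plus strand), with the core 28 bases after the start site.
Nfe2l2: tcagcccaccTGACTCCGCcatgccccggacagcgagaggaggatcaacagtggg
Gclm: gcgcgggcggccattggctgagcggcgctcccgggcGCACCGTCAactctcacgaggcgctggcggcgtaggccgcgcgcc
Txnrd1: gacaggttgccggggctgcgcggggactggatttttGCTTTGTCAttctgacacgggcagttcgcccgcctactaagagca
Sod1: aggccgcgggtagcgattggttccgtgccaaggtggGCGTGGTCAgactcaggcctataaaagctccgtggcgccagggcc
Srxn1: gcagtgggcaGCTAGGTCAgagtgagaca
A match describes the letters of the window only, and binding was not measured.

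Library totals ranged from 9342945 to 16376922 counts on exons. Levels are given as CPM, the count scaled to a common library total with trimmed mean of M values (TMM) factors. A count of 3 corresponded to 0.190 to 0.325 CPM, a limit that covers counting error only, and every one of the 10 genes stood above it in all 9 libraries. The genotype labels were checked on the 2 mouse genes that lend sequence to the transgene. Thy1 lay between 461 and 670 CPM in the 6 Tg4-42 mice and between 82.1 and 88.8 CPM in WT mice, and Trh between 48.0 and 64.7 against 1.81 to 4.39 CPM. Neuronal markers dominated, with 7 genes summing to 6292 to 8985 CPM across all 9 libraries, while 8 astrocyte markers summed to 283 to 427, 8 microglial markers to 43.5 to 78.4 and 8 oligodendrocyte markers to 258 to 513 CPM.

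Adjusted for length, the 10 genes spanned a wide range of levels, and the enzymes stood above their regulator. The mean over the 9 mice, in CPM per kilobase of annotated exon, was 26.9 for Srxn1, 15.4 for Gclc, 10.1 for Sod1, 9.80 for Cat, 7.49 for Txnrd1, 4.76 for both Sod2 and Gclm, 2.80 for Hmox1, 1.23 for Nqo1 and 0.619 for Nfe2l2. Among neighbours in this order, the ranges over mice were separate between Srxn1 and Gclc, between Gclm and Hmox1, and between Nqo1 and Nfe2l2. All other neighbours overlapped. Taking the longest transcript in place of all exons raised Txnrd1 most, to between 13.2 and 17.0 CPM per kilobase in the 3 groups, and Sod2 to between 7.65 and 8.40, so the middle of the order depends on the annotated length. On that scale Nfe2l2 stood at 0.687 to 1.17 and Nqo1 at 0.915 to 1.77 in the 3 groups, and Nfe2l2 was the higher of the pair in the caffeine group.

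**Figure D1:**
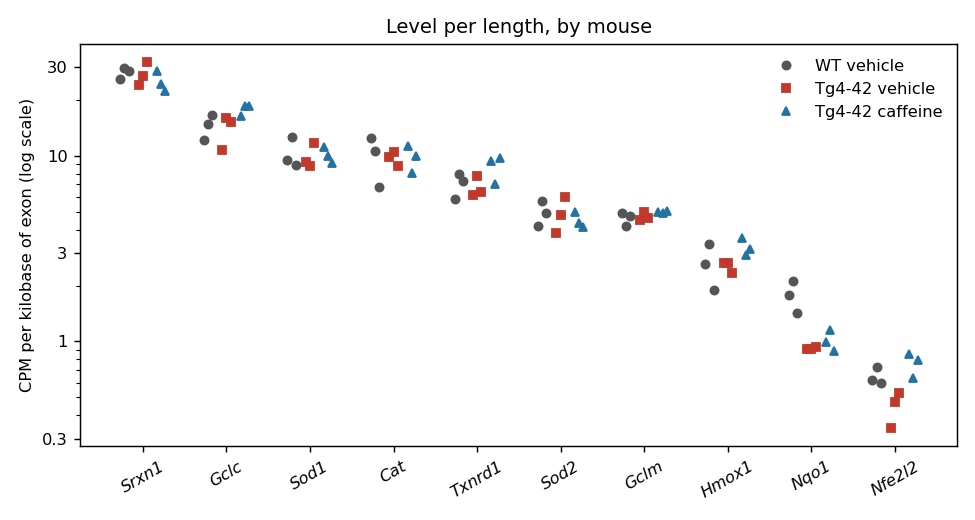
Level of each of the 10 genes in CPM per kilobase of exon, on a log axis, with 1 point per mouse and 1 marker shape per group, ordered by the mean over all mice. Srxn1 lies highest with a mean of 26.9 and Nfe2l2 lowest with a mean of 0.619, and groups overlap within most genes.

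In none of the 3 comparisons did any of the 10 genes pass the threshold. Between vehicle-treated Tg4-42 and WT mice, 0 of 10 had an adjusted p under 0.05 by edgeR's quasi-likelihood test, where 0.0979% of all genes tested did. The count was also 0 in all 3 comparisons with DESeq2 and with limma-voom. Over all genes DESeq2 called 26 for vehicle-treated Tg4-42 against WT mice, 765 for caffeine against vehicle and 568 for caffeine against WT. Limma-voom called 587 for caffeine against vehicle and 125 for caffeine against WT. With 10 genes, a count of 0 does not set them apart from all genes. Between vehicle-treated Tg4-42 and WT mice, Nqo1 alone of the 10 had an unadjusted p under 0.05 in edgeR's test, beside 2.74% of all genes. Nqo1 and Nfe2l2 were lower in every vehicle-treated Tg4-42 mouse than in any WT mouse, and such separation of the groups in either direction occurred in 6.73% of all genes. The median log2 fold change of the 10 genes was -0.04, with 9 negative values, against 0.00 over all genes tested.

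Caffeine against vehicle in Tg4-42 mice likewise gave 0 of 10 calls by the same test, beside 0.881% of all genes. Nfe2l2, Gclc and Txnrd1 had an unadjusted p under 0.05, which 17.0% of all genes had. Nfe2l2, Hmox1 and Gclc were higher in every caffeine-treated mouse than in any vehicle-treated one, with 23.0% of all genes separated in either direction. The median of the 10 genes was 0.11 on the log2 scale, with 8 positive values, against -0.01 over all genes. Caffeine-treated Tg4-42 against WT mice gave 0 of 10 calls, beside 0.415% of all genes. Here Nqo1 was the one gene of the 10 with an unadjusted p under 0.05, beside 15.4% of all genes, and it alone had groups that did not overlap, beside 18.8% of all genes. The median was 0.04 with 5 positive and 5 negative values, and it was 0.16 without WT mouse 1. The comparisons share groups and are not independent of each other.

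The libraries of caffeine-treated mice also differed in markers of hippocampal subregions. The 8 markers of dentate granule cells summed to 1060 to 1279 CPM under caffeine, above the 521 to 918 CPM of vehicle-treated Tg4-42 and the 636 to 889 CPM of WT mice. All 8 had positive fold changes against vehicle-treated Tg4-42 mice. In edgeR's quasi-likelihood test 2 of 8 were called higher, beside 0.213% of all genes called higher. Dsp and Prox1 are among these markers. The study names both as upregulated upon caffeine treatment, from the same libraries. The granule cell sum and the calls are therefore not independent of that report. The 5 CA1 markers summed to 357 to 373 CPM under caffeine, below the 419 to 486 and 441 to 601 CPM of the other groups. For both sums the exact permutation test gave p = 0.1, the smallest that 3 mice against 3 allow. Of the 5 CA1 markers, 4 had negative fold changes against vehicle-treated Tg4-42 mice and 1 a positive one, without a call. Against WT mice 1 of the 5 was called lower by edgeR's quasi-likelihood test, beside 47 of all 17361 genes. For caffeine against vehicle, all 8 microglial, 7 of 8 oligodendrocyte, 7 of 8 astrocyte and 6 of 7 general neuronal markers had negative fold changes. All 4 CA3 markers had positive ones there, and no marker of these 5 lists was called. The neuronal sum was 6292 to 7452 CPM under caffeine and 7303 to 8985 under vehicle, and the CA3 sum 138 to 175 and 115 to 159 CPM, each with p = 0.2 in the exact permutation test. No astrocyte, microglial or oligodendrocyte marker was at 0 in any library. The part of these differences in the values of the antioxidant genes was not tested. In bulk nuclei, fewer nuclei of a type, more nuclei of other types and less RNA per nucleus cannot be told apart. CPM values are shares of a library and do not count nuclei. In sections of female mice, the study counted more CA1 neurons in caffeine-treated than in untreated Tg4-42 mice.

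**Figure D2:**
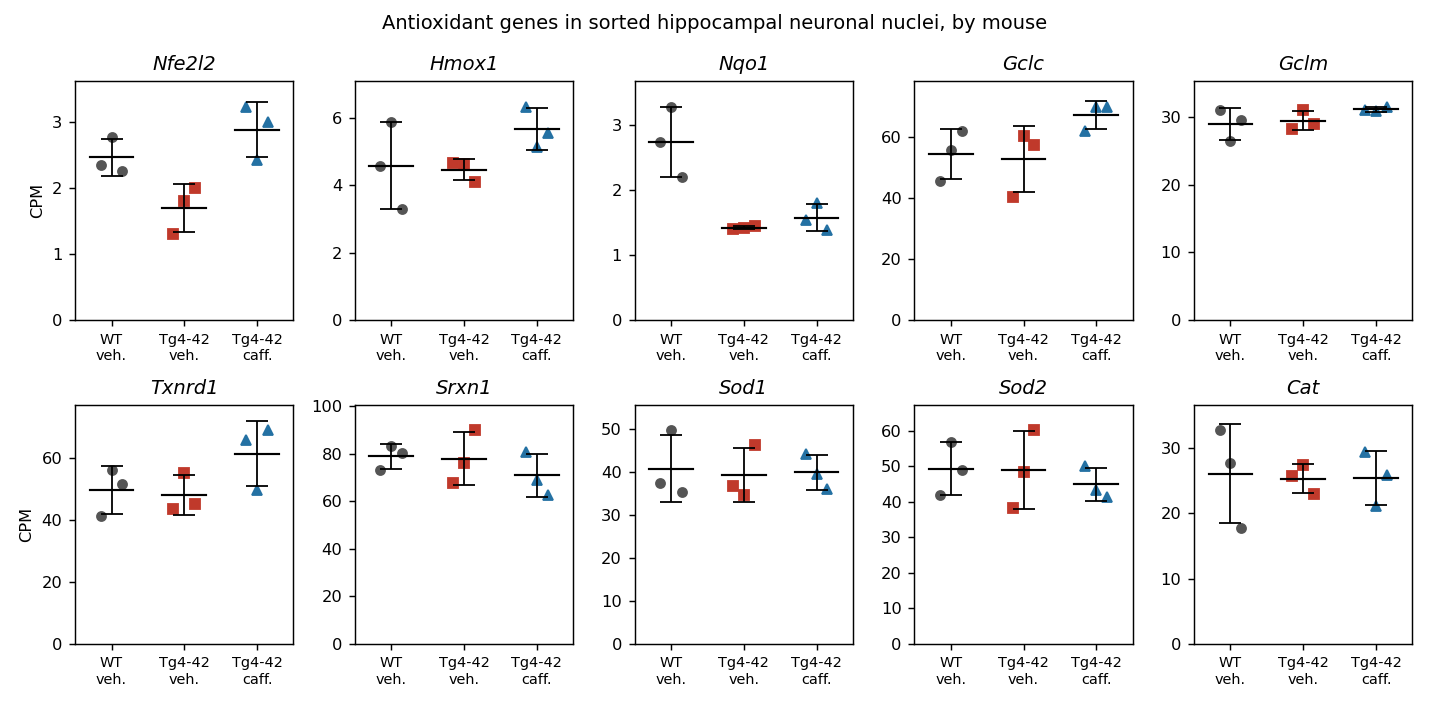
CPM of each of the 10 genes, with 1 point per mouse and with lines and bars for the mean and SD of 3 mice in each group, on axes that start at 0. Nqo1 is lower in both Tg4-42 groups than in WT mice, and Nfe2l2 is lowest in vehicle-treated Tg4-42 mice, with values of 1.30 to 2.01.

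The regulator itself, Nfe2l2 (chr2:75675513-75704641 of mm10, minus strand), was read from 12 to 44 counts per library, the fewest of the set together with Nqo1. Its levels were 2.35, 2.78 and 2.26 CPM in WT mice, 1.30, 1.80 and 2.01 in vehicle-treated Tg4-42 mice, and 3.23, 2.42 and 2.998 in caffeine-treated Tg4-42 mice. Vehicle-treated Tg4-42 mice held the 3 lowest values of all 9, and the caffeine group overlapped with WT. Against WT, the vehicle-treated Tg4-42 mean of 1.70 ± 0.364 CPM (SD, n = 3) gave a log2 fold change of -0.52 (SE 0.30) with an unadjusted p of 0.104 by edgeR's quasi-likelihood test. Caffeine-treated mice averaged 2.88 ± 0.419 CPM, a 1.67-fold higher level than under vehicle, with a 95% interval of 1.08 to 2.60. This difference had an unadjusted p of 0.0251 and a Benjamini-Hochberg adjusted p of 0.221 in edgeR's test. It ranged from 0.60 to 0.88 on the log2 scale when any 1 mouse was left out, and 3 of 6 such fits kept an unadjusted p under 0.05. Between caffeine and WT the log2 fold change was 0.22, with an interval of -0.38 to 0.83.

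Nqo1 encodes NAD(P)H quinone dehydrogenase, a cytosolic enzyme that reduces quinones without forming semiquinone radicals and is widely used as a readout of NRF2. The gene (chr8:107388225-107403206, minus strand) had 13 to 52 counts per library. WT mice had 2.75, 3.28 and 2.20 CPM, vehicle-treated Tg4-42 mice 1.41, 1.41 and 1.45, and caffeine-treated Tg4-42 mice 1.54, 1.80 and 1.38. All 6 transgenic mice lay below all 3 WT mice, irrespective of treatment, and the transgenic groups overlapped. The vehicle-treated Tg4-42 level was 0.520 times that of WT, with a 95% interval of 0.327 to 0.826. The unadjusted p of this difference was 0.00858, but the adjusted p by edgeR's quasi-likelihood test was 1.00. Leaving out any 1 mouse kept its log2 value between -1.09 and -0.79. The caffeine group stood at a log2 fold change of -0.79 from WT, with an adjusted p of 0.231, and at 0.15 from vehicle, with an interval of -0.55 to 0.85.

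Hmox1 encodes heme oxygenase 1, the inducible enzyme that opens the heme ring. The gene (chr8:75093621-75100589, plus strand) measured 4.55, 5.87 and 3.30 CPM in WT mice, 4.65, 4.62 and 4.10 in vehicle-treated Tg4-42 mice, and 6.32, 5.12 and 5.54 under caffeine. Caffeine-treated mice lay above all vehicle-treated Tg4-42 mice, yet 1 WT mouse fell within their range. Their log2 fold change against vehicle was 0.34 (SE 0.25), with an adjusted p of 0.518 by edgeR's quasi-likelihood test. Against WT, the vehicle-treated Tg4-42 group differed by -0.04, with an interval of -0.57 to 0.50.

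Glutathione synthesis begins with glutamate-cysteine ligase, whose catalytic subunit is encoded by Gclc (chr9:77754535-77794485, plus strand) and whose modifier subunit by Gclm (chr3:122245557-122270732, plus strand). The subunits gave different pictures. Gclc measured 45.6, 55.7 and 62.0 CPM in WT mice, 40.3, 60.4 and 57.2 in vehicle-treated Tg4-42 mice, and 62.0, 69.8 and 69.9 under caffeine. The lowest caffeine-treated mouse lay just above the highest vehicle-treated mouse, and just below the highest WT mouse. Caffeine-treated mice were 1.27-fold higher than vehicle-treated Tg4-42 mice (95% interval 1.01 to 1.60), with an unadjusted p of 0.0399 and an adjusted p of 0.271 by edgeR's quasi-likelihood test. With any 1 mouse left out its log2 value ran from 0.19, without vehicle-treated Tg4-42 mouse 1, to 0.47, and 3 of 6 such fits kept an unadjusted p under 0.05. Between vehicle-treated Tg4-42 and WT mice the log2 fold change of Gclc was -0.05.

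Gclm varied least of the 10 genes, between 26.5 and 31.6 CPM over all mice, a ratio of 1.19 from lowest to highest. Its fold change under caffeine against vehicle was 1.06, with a 95% interval of 0.873 to 1.28, and that of vehicle-treated Tg4-42 against WT mice was 1.02, with an interval of 0.840 to 1.23. Exons of Gclm overlap those of Gm17494 on the opposite strand over 296 bases and those of Gm6061 over 244 bases. The library kit does not mark strand, and Gm6061 lies on the same strand as Gclm, so reads in either stretch cannot be assigned to 1 gene.

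In the thioredoxin branch, Txnrd1 encodes the cytosolic reductase that recharges thioredoxin with NADPH, and Srxn1 encodes sulfiredoxin, which repairs over-oxidised peroxiredoxins. Txnrd1 (chr10:82833951-82897712, plus strand) measured 41.3, 56.2 and 51.7 CPM in WT mice, 43.5, 55.4 and 45.1 in vehicle-treated Tg4-42 mice, and 65.9, 49.6 and 69.0 under caffeine. Of the caffeine-treated mice, 2 were the highest of all 9, while the other lay within both control groups. The caffeine-treated level was 1.28 times that of vehicle (95% interval 1.02 to 1.61), with an unadjusted p of 0.0376 and an adjusted p of 0.264 by edgeR's quasi-likelihood test. The unadjusted p of Txnrd1 stayed under 0.05 in 2 of 6 fits that left out a mouse. Srxn1 (chr2:152105516-152111376, plus strand) measured 73.1, 83.4 and 80.3 CPM in WT mice, 67.7, 75.9 and 89.8 in vehicle-treated Tg4-42 mice, and 80.6, 69.0 and 62.7 under caffeine. All groups of Srxn1 overlapped, and its log2 fold change under caffeine against vehicle was -0.14, with an interval of -0.42 to 0.15. That sign was opposite in the libraries of sequencing lane 6 alone (mice 1 and 2 of each group, with mouse 3 on lane 7), at 0.07, where neither value passed the test. In lane 6 alone, Nfe2l2, Gclc and Txnrd1 stood at 0.86, 0.40 and 0.24 for caffeine against vehicle. Their unadjusted p there, by edgeR's quasi-likelihood test, was 0.0601, 0.0616 and 0.259.

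Superoxide dismutases turn superoxide into hydrogen peroxide, Sod1 in the cytosol and Sod2 in the mitochondrial matrix, and catalase, encoded by Cat, breaks hydrogen peroxide down in peroxisomes. Groups overlapped for all 3 genes in each comparison. Sod1 (chr16:90220754-90226329, plus strand) ranged from 34.8 to 49.8 CPM, with both extremes in vehicle-treated mice. Its log2 fold change was -0.05 for vehicle-treated Tg4-42 against WT mice and 0.02 for caffeine against vehicle, with intervals of -0.39 to 0.28 and -0.31 to 0.36. Within lane 6 the same values were -0.30 and 0.25, and neither passed the test. A stretch of 298 bases of Sod1 is almost identical to the copy Gm8566, so a share of its reads could be assigned to either.

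Sod2 (chr17:13006846-13040063, plus strand) measured 42.0, 56.9 and 48.9 CPM in WT mice, 38.2, 48.3 and 60.1 in vehicle-treated Tg4-42 mice, and 49.9, 43.3 and 41.3 under caffeine. The caffeine group lay within the range of vehicle-treated Tg4-42 mice. The difference from vehicle was -0.13 on the log2 scale (interval -0.47 to 0.22), and 0.12 in the libraries of lane 6 alone. Stretches of 145 to 193 bases of Sod2 are at least 95% identical to transcripts of other genes, so some of its reads could be ambiguous. Cat (chr2:103453849-103485160, minus strand) had its widest spread among WT mice, from 17.8 to 32.7 CPM, and the means of the 3 groups lay between 25.3 and 26.1 CPM. Log2 fold changes of Cat were -0.04, 0.01 and -0.03 for vehicle-treated Tg4-42 against WT, caffeine against vehicle and caffeine against WT, and all intervals lay between -0.46 and 0.43.

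**Figure D3:**
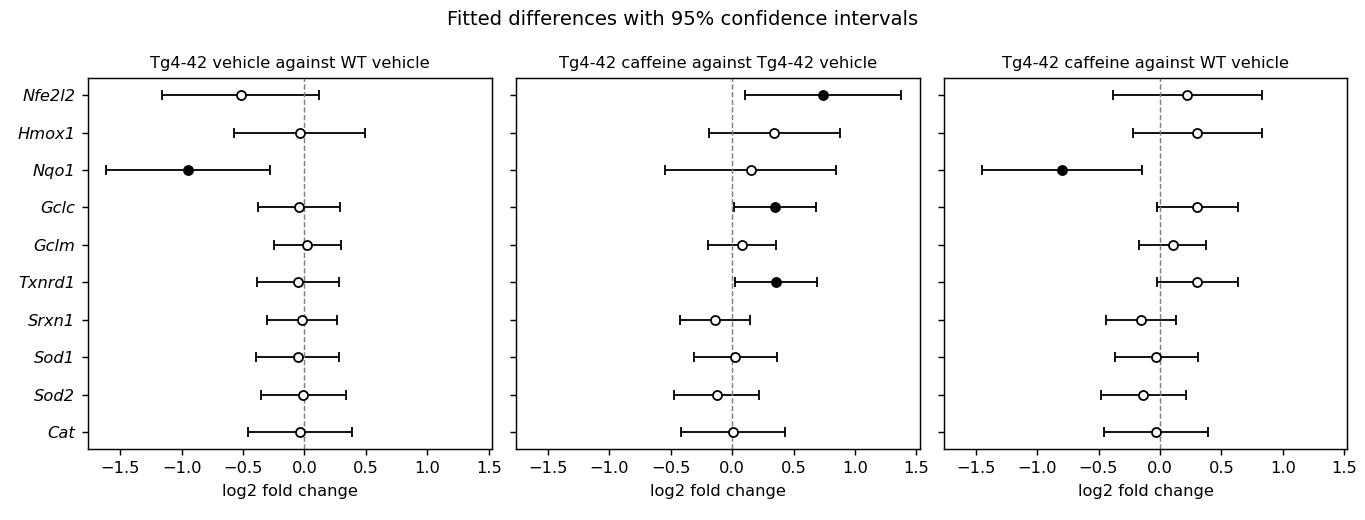
Fitted log2 fold changes of the 10 genes with 95% confidence intervals from edgeR's quasi-likelihood fit, in 1 panel per comparison, where filled points have an unadjusted p under 0.05. Nqo1 is filled in both comparisons with WT, and Nfe2l2, Gclc and Txnrd1 are filled for caffeine against vehicle, and no gene passed after adjustment.

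The intervals bound the differences at this depth and number of mice. For the 7 genes above 17 CPM in every mouse, the 95% interval of caffeine against vehicle stayed between 0.720 and 1.61 times the vehicle level. For the low genes Nfe2l2, Nqo1 and Hmox1 the same intervals ran from 0.684 to 2.60.

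Levels of the 10 genes were also compared with each other across the 9 libraries, as a description without a test. The points share library depth and group, and the sets named here were chosen after the values were seen. Of 45 pairs, 31 had a positive Pearson correlation of log2 CPM, with a median of 0.15. Srxn1 and Sod2 had the highest, at 0.92, and Sod1 correlated with Sod2 at 0.73 and with Srxn1 at 0.65. These 3 values stayed between 0.73 and 0.93 once group means were removed. Txnrd1 correlated with Gclc at 0.69 and with Nfe2l2 at 0.68, and Nfe2l2 with Gclc at 0.64. Among Nfe2l2, Gclc, Txnrd1 and Hmox1, the 6 values fell to between -0.36 and 0.59 within groups, so the pooled values hold the differences between groups. Pairs across these sets had within-group values of 0.02 to 0.82, highest for Nfe2l2 with Sod2, so the sets did not stand apart within groups. Gclm went against Sod1, at -0.58.

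**Figure D4:**
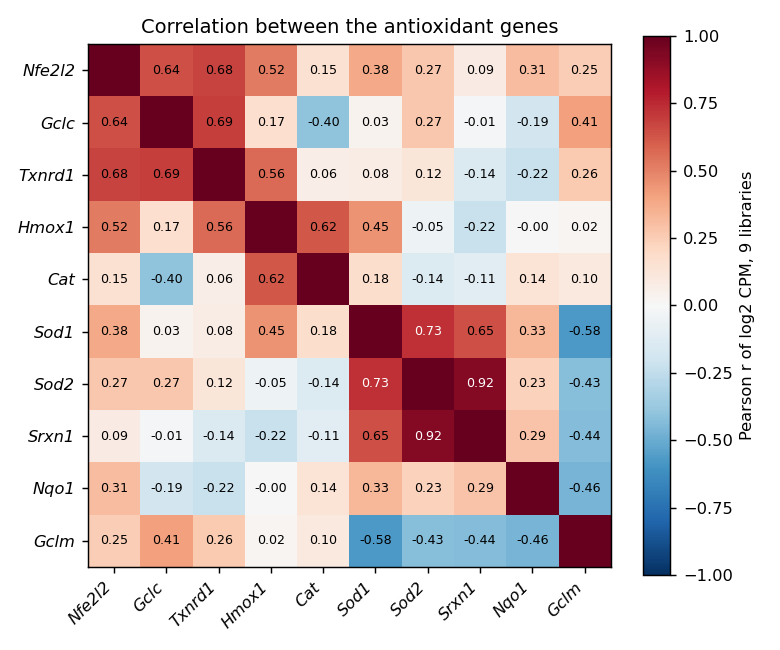
Pearson correlation of log2 CPM for each pair of the 10 genes over 9 libraries, on a colour scale from -1 to 1, with the value in each cell. Pooled over groups, values are 0.65 to 0.92 among Srxn1, Sod1 and Sod2 and 0.64 to 0.69 among Nfe2l2, Gclc and Txnrd1, and the order of the genes was chosen after the values were seen.

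Among the genes whose levels over the 9 libraries were most like those of Nfe2l2 were Tunar, with a Pearson correlation of 0.98, Ppp1r14c with 0.95, and Naa30 and Zfp664 with 0.93 each. Tunar is annotated as a non-coding RNA. These values were picked as the highest among all genes tested over few libraries and are given as a description.

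The wider redox network was described by 6 lists with 107 genes in all, of which 103 were tested. Between vehicle-treated Tg4-42 mice and WT mice, 0 of the 103 were called by edgeR's quasi-likelihood test, by DESeq2 or by limma-voom, beside the 0.0979% of all genes called by edgeR. In edgeR's test 5 of them (4.85%) had an unadjusted p under 0.05, beside 2.74% of all genes. For caffeine against vehicle edgeR called 1 gene higher and 1 lower, Fth1 and Tkt, beside 0.881% of all genes. DESeq2 and limma-voom called the same pair, beside 765 and 587 calls over all genes. An unadjusted p under 0.05 was found for 15 (14.6%), of which 7 were higher and 8 lower, beside 17.0% of all genes. For caffeine-treated Tg4-42 against WT mice edgeR and limma-voom called Tkt alone, lower. Over all genes edgeR called 0.415% and limma-voom 125 genes. In edgeR's test 17 (16.5%) had an unadjusted p under 0.05, beside 15.4%. DESeq2 called 3 genes lower there, Tkt, Prdx6 and Ephx1, beside 568 calls over all genes. Without a filter on low counts edgeR called 3 lower, Tkt, Ephx1 and Nnt, beside 860 calls over all genes. Ephx1 and Nnt are named after their values were seen.

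Fth1, which encodes the ferritin heavy chain that stores iron and is a known NRF2 target, was the gene called higher under caffeine. It measured 464, 678 and 489 CPM in WT mice, 362, 384 and 382 in vehicle-treated Tg4-42 mice, and 628, 561 and 652 under caffeine. Vehicle-treated Tg4-42 mice were the 3 lowest of all, as they were for Nfe2l2, and the other groups overlapped. Separation from WT occurred in 6.73% of all genes and from the caffeine group in 23.0%, in either direction. Fth1 rose 1.63-fold under caffeine against vehicle (95% interval 1.32 to 2.02, adjusted p = 0.0399 by edgeR's quasi-likelihood test). Against WT, the vehicle-treated Tg4-42 log2 fold change was -0.53 with an adjusted p of 0.752, and it was -0.34 without WT mouse 2. With lane as a covariate the adjusted p of the caffeine difference was 0.0656. The call was kept in 1 of 6 fits that left out a mouse, that without caffeine-treated mouse 1, and the adjusted p ran from 0.0446 to 0.278 over these fits, while the log2 value stayed between 0.66 and 0.77.

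Tkt, which encodes transketolase of the non-oxidative pentose phosphate pathway, also among known NRF2 targets, went the opposite way. Its levels were 130, 139 and 115 CPM in WT mice, 120, 112 and 123 in vehicle-treated Tg4-42 mice, and 85.8, 77.3 and 70.8 under caffeine. Every caffeine-treated mouse lay below all 6 others. Separation in either direction occurred in 23.0% of all genes against vehicle and in 18.8% against WT. Tkt fell by 0.60 on the log2 scale against vehicle (adjusted p = 0.0399 by edgeR's quasi-likelihood test) and by 0.71 against WT (adjusted p = 0.0166). The adjusted p against vehicle was 0.0582 with lane as a covariate, and the call was kept in 2 of 6 fits that left out a mouse, those without caffeine-treated mouse 1 and without vehicle-treated Tg4-42 mouse 2, while the log2 value stayed between -0.67 and -0.53. Against WT it was kept in 3 of 6 such fits, those without caffeine-treated mouse 1, WT mouse 1 or WT mouse 3, with values of -0.79 to -0.65. Within lane 6 alone none of these calls was kept. There Fth1 stood at 0.69 and Tkt at -0.49 against vehicle, both with an adjusted p of 0.817, and Tkt at -0.72 against WT, with 0.194.

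The other genes with the smallest p in each list did not pass the threshold in the reported fit. Without a filter on low counts Gpx3, Idh1 and Ptgr1 also passed, with adjusted p of 0.0168, 0.0357 and 0.0300 in edgeR's test. That fit made 987 calls over all genes. Among the 17 tested genes of NRF2 control, Keap1, the adaptor that holds NRF2, had a log2 fold change of 0.34 under caffeine against vehicle, and Nfe2l1, the NRF2 relative that drives proteasome genes, one of -0.34, with adjusted p of 0.275 and 0.206 by edgeR's test. In the glutathione list of 30 tested genes, 20 values were negative, with -0.77 for the transferase Gstt1 and -0.82 for the secreted peroxidase Gpx3, which were -0.44 and -0.28 in lane 6 alone. Gpx3 was -1.24 without caffeine-treated mouse 2 and -0.53 without caffeine-treated mouse 3. Of 20 thioredoxin and peroxiredoxin genes, 9 were negative, with -0.31 for Prdx6 and -0.50 for Prdx4, the latter at -0.18 in lane 6 alone and at -0.32 without caffeine-treated mouse 3. NADPH supply held, beside Tkt, the isocitrate dehydrogenase Idh1 at -0.56, which was -0.26 in lane 6 alone and -0.37 without caffeine-treated mouse 3. In the list for heme, iron and superoxide handling, the iron exporter Slc40a1 stood at 0.63. Ptgr1, a reductase of prostaglandins and reactive alkenals, had the largest value of the quinone and xenobiotic enzymes at 1.26, with an adjusted p of 0.0885 in edgeR's test, and the efflux pump Abcc4 stood at 0.54, or 0.82 without vehicle-treated Tg4-42 mouse 2. Ptgr1 measured 1.73, 1.16 and 1.28 CPM in vehicle-treated Tg4-42 mice and 3.90, 2.35 and 3.61 under caffeine. These values rest on 16 to 18 and 34 to 53 counts per library. The 2 groups did not overlap, as was so for 23.0% of all genes in either direction.

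**Figure D5:**
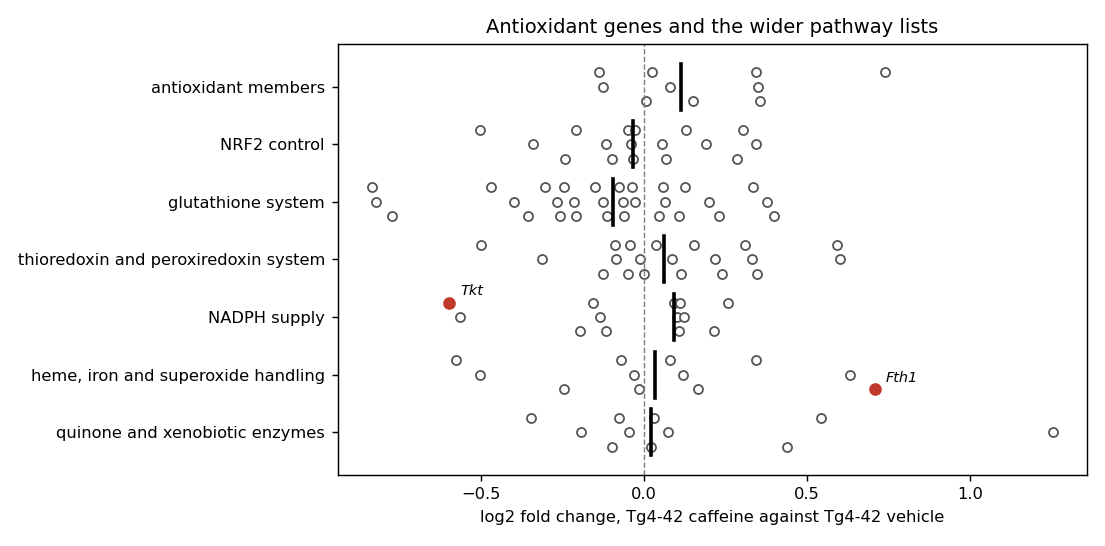
Log2 fold change under caffeine against vehicle in Tg4-42 mice for the 10 antioxidant genes (first line) and the 6 wider lists, with 1 point per gene, a bar for the median of each list and filled points for genes that passed the adjusted threshold. Medians lie between -0.09 and 0.11, and Fth1 at 0.71 and Tkt at -0.60 are the filled points.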

How the data were processed

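The deposited values were whole counts of reads on the exons of each gene, without normalization, which the authors obtained by aligning single-end reads of 50 bases to mm10 with STAR and counting with featureCounts. The annotation release and strand setting of the counting are not given in the sources used here. Symbols and positions came from GENCODE M21, which matched 48349 of 48709 identifiers, and promoters from RefSeq (GRCm38.p6). Genes were filtered with edgeR's defaults (minimum count 10, minimum total 15), library sizes scaled by TMM, and all 9 libraries fitted together with edgeR 4.0.16 in R 4.3.3, using robust quasi-likelihood tests, contrasts between groups and Benjamini-Hochberg adjustment over all 17361 genes, at a threshold of 0.05. Log2 CPM values used a prior count of 2. Standard errors were derived from the F statistic. Sums of marker genes were compared by two-sided exact permutation tests. The fit was tested on simulated counts.

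Each group held 3 libraries with separate animal numbers in their titles, and library totals of 9342945 to 16376922 counts set the precision. Counts of mice within a group differed beyond sampling noise (chi-square 8.98 to 21.1 per gene). Replicate numbers follow accession order and were not used to pair mice. Lane is the lane in the library name, with replicate 3 of each group on lane 7 and the others on lane 6. The members and lists, and the rule for genes named (the 10 genes, called genes of the wider lists, the 2 of each list with the smallest unadjusted p under caffeine against vehicle, Thy1 and Trh, and the 5 genes most like Nfe2l2, of which 1 is not reported here), were chosen with earlier results of these data known. Alternatives were the size factors of RLE, other filters, DESeq2 1.42.0, limma-voom (limma 3.58.1), fits of 2 groups, a replicate block, lane, lane 6 alone, corrections for length and GC content, and each mouse left out. The current quasi-likelihood method of edgeR was added after seeing the data.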

Additional observations from a re-analysis of the deposited data

How the results depend on the processing

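None of the 10 genes was called under any alternative, DESeq2 and limma-voom included, in 534 values, of which 530 stayed within the spread between replicates and 38 had another sign than the reported value, none of these with a reported p under 0.05. The number of genes called over all genes depended strongly on the setting. For vehicle-treated Tg4-42 against WT mice, with 17 calls as reported, it was 74 without a filter on low counts and 26 with DESeq2, and 14 to 18 when 1 mouse was left out. For caffeine against vehicle, with 153 as reported, it was 987 without a filter, 765 with DESeq2, 587 with limma-voom, 9 with lane as a covariate, 0 in lane 6 alone and 257 with a GC correction, and it ran from 0 (without caffeine-treated mouse 3, or without vehicle-treated Tg4-42 mouse 3) to 341 (without caffeine-treated mouse 1), with 3 without vehicle-treated Tg4-42 mouse 1 and 58 without caffeine-treated mouse 2. For caffeine-treated Tg4-42 against WT mice, with 72 as reported, the corresponding counts were 860, 568, 125, 42, 17 and 149, and 16 (without caffeine-treated mouse 3) to 287 (without caffeine-treated mouse 1), with 42, 23 and 28 without WT mouse 1, 2 or 3. The median of the 10 genes was -0.19 and 0.24 in lane 6 alone for vehicle-treated Tg4-42 against WT and for caffeine against vehicle, and with 1 mouse left out it ran from -0.13 to 0.02, from 0.10 to 0.18 and, against WT under caffeine, from -0.0034 to 0.16. The causes were not tested. With the replicate block the counts were 16, 187 and 82, and no call among the 10 genes was gained, and the numbers were given in accession order. Same-number residuals correlated at 0.14 to 0.19 in the 3 pairs of vehicle-treated Tg4-42 with WT mice and at -0.17 to 0.18 in the 6 other pairs. Of the 10 genes, Nfe2l2 and Nqo1, at 12 to 52 counts per library, are the values most limited by depth. Ptgr1 of the wider lists had similarly few, with 16 to 53 counts per library.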
